A study of Homo sapiens with 6 samples.

Results

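The 10 genes described here encode the G1 cyclins CCND1, CCND2, CCND3, CCNE1 and CCNE2, the kinases CDK4 and CDK6, the CDK inhibitors CDKN1B (p27) and CDKN2A (p16INK4a and p14ARF), and RB1, the retinoblastoma protein. They were taken by name from the gene names of the array, with every probe that carries one of them, and are 10 of 26123 genes on the array. Together they had 13 probes, since CCNE2, CDKN1B and CDKN2A had 2 probes each and the other 7 genes had 1, and these occupied 40 spots of each array. RNA was compared between pLUM, a pure luminal line that expresses estrogen receptor (ER) and progesterone receptor (PR) but not cytokeratin 5 (CK5), and pLB, a pure luminobasal line that is ER- PR- CK5+. Both were sorted from xenograft tumors of T47Dco cells, which derive from the T47D breast cancer cell line that the labels name as parental, pLUM from a tumor grown with estradiol (E) and pLB from a tumor grown with E plus progesterone, and each group is therefore 1 derived cell line. The 3 pLUM samples had been given 1 nM E for 72 h, whereas the 3 pLB samples were under E withdrawal (EWD), so that line and hormone coincided on all 6 arrays and cannot be told apart. Cells were fixed, stained for CK5 and sorted in triplicate before RNA extraction, and which CK5 fraction went onto the arrays is not given in the labels.

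D-type cyclins bind CDK4 or CDK6, and E-type cyclins bind CDK2. These kinases phosphorylate RB1, which then releases E2F transcription factors, and the E2F targets carry the cell into S phase. INK4 proteins such as p16INK4a bind CDK4 and CDK6, whereas CIP/KIP proteins such as p27 bind cyclin-CDK complexes. In luminal breast cancer cells CCND1 is known as an estrogen-induced gene, and inhibitors of CDK4 and CDK6 are used to treat ER+ disease.

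Each array carried a single dye and 1 sample. A spot's background-corrected intensity was divided by the 75th percentile of its array and expressed as log2, and this value is called normalized signal throughout. A probe was well above background where the scanner software flagged its signal so. Differences are log2 fold changes, pLB minus pLUM, fitted with limma over all 23105 probes that passed this flag on 3 or more of the 6 arrays. A gene was called higher or lower in pLB where it differed 2-fold or more with a Benjamini-Hochberg adjusted p under 0.05 over all these probes, and its probe with the highest mean signal represented it. The 75th percentile of intensity was 449 to 869 across arrays, 21285 to 22775 probes per array were well above background, and Pearson's r across probes was 0.972 to 0.991 within a line and 0.780 to 0.806 between lines. Probes are not independent replicates, and the number of arrays limits the precision. Replicates are separate sorts of the same line, so p-values measure only the spread between these samples. With 3 arrays a line, 0.1 is the smallest two-sided p of an exact permutation test.

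The lines carried the marker genes of their labels. Of 8 luminal markers, 7 were called lower in pLB and KRT18 differed by -0.62, whereas 6 of 6 luminobasal markers were called higher. PGR, the gene of PR, was well above background on 0 of 3 pLB arrays, and KRT5, the gene of CK5, on 0 of 3 pLUM arrays, whereas ESR1, the gene of ER, was on 3 of 3 pLB arrays and lower there by -1.80. CLDN3 and ITGA6, which encodes CD49f, are among these markers and were used to sort the lines. Cells were sorted again for CK5, the product of KRT5, before RNA extraction. CLDN3, ITGA6 and KRT5 are therefore no finding. Of 5 leukocyte markers, CD68 and CD3D were called higher in pLB, and the summed signal of the list, as a linear ratio to the 75th percentile, was 0.441 to 0.551 in pLUM and 0.413 to 0.631 in pLB. Among the 6 markers of stromal fibroblasts, DCN, LUM, PDGFRA and PDGFRB were well above background on no array, COL1A2 was called higher in pLB, and the summed signal was 0.760 to 0.966 in pLUM and 0.777 to 1.12 in pLB. Of the 4 endothelial markers, PECAM1 and TEK were well above background on no array, VWF was called higher in pLB, and the sum was 0.0709 to 0.107 in pLUM and 0.0922 to 0.204 in pLB. The part of other cells in the results was not tested. In bulk samples, fewer cells that express a gene and less RNA of it per cell cannot be told apart.

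Of the 10 genes, 5 were called higher in pLB, namely CCND1, CCND2, CDK4, CDK6 and CDKN2A. CDKN1B was called lower, and CCND3, CCNE1, CCNE2 and RB1 were not called. Differences of this kind were common between these lines, with 22.6% of 17785 tested genes called higher and 23.1% called lower. Of all calls 49.4% were higher in pLB, and with scaling to spike-in controls, an alternative chosen after seeing the data, 59.8% were. The median difference of the 10 genes was 0.97, with or without CCND2 set at its lower bound, beside 0.03 over all tested genes. The 3 pLB arrays lay above the 3 pLUM arrays for 7 of the genes and below them for 2, where 35.5% of all tested genes lay above and 33.5% below. By probe, 6 of 13 were called higher and 1 lower, beside 21.9% and 23.7% of all tested probes.

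**Figure D1:**
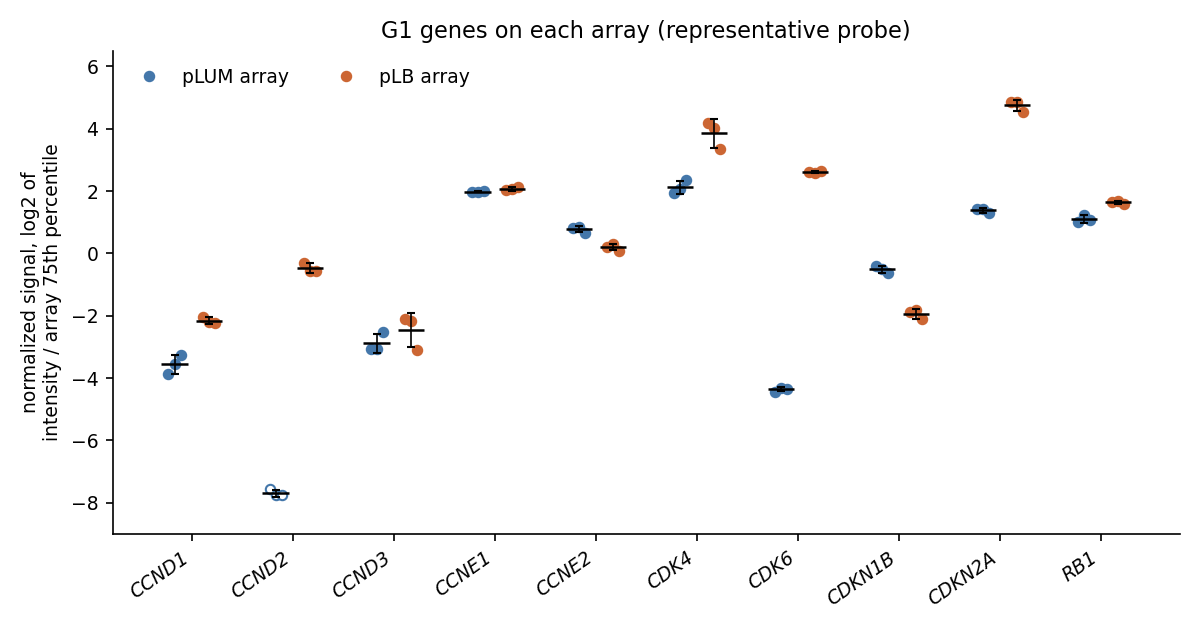
Normalized signal (log2 of intensity over the array's 75th percentile, vertical axis) of each of the 10 genes by its representative probe, with 1 point per array, pLUM in blue and pLB in orange. Bars give the mean and SD of 3 arrays, and open points mark a probe whose signal was not well above background in that line. CDK6, CCND2 and CDKN2A show the widest separation of the lines, and only CCND3 overlaps. Signals of different genes come from different probes and are not to be compared with each other.

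The widest separations of the 10 genes were those of CCND2 and CDK6, a D-type cyclin and a kinase that D-type cyclins activate. CDK6, with its probe at chr7:92234443-92234502 (hg19), had intensities of 21.9 to 28.3 on the pLUM arrays and of 2819 to 5344 on the pLB arrays. Its normalized signal was -4.44, -4.31 and -4.35 in pLUM replicates 1, 2 and 3, and 2.62, 2.58 and 2.65 in pLB replicates 1, 2 and 3. Replicates of each line were thus nearly level, and the lines were far apart. The mean rose from -4.37 ± 0.06 to 2.62 ± 0.04 (SD, n = 3 each), a difference of 6.98 ± 0.15 (SE) or 126-fold (limma adjusted p = 2.54e-07). Only 0.658% of tested genes had a larger fitted increase. The CDK6 probe was well above background on all 6 arrays, so the fold is measured on both sides, although the pLUM intensities are low. With normexp background correction, which raises low intensities by an offset, the CDK6 difference was 4.88.

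CCND2 (cyclin D2, probe at chr12:4414040-4414099) was well above background on no pLUM array and on all 3 pLB arrays. Its intensities were 2.51 to 2.61 in pLUM and 306 to 706 in pLB. The normalized signal was -7.56, -7.77 and -7.76 in pLUM and -0.30, -0.57 and -0.55 in pLB, again with no overlap. Since the pLUM signal is not a measured level, CCND2 was at least 29.9-fold higher in pLB (limma adjusted p = 3.14e-07). This bound sets the mean of pLB against the lowest signal that was well above background on each pLUM array. In bounds of other genes, an array on which the gene's own signal was higher than that entered with its own signal. Under normexp correction the fitted difference was 2.57.

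CCND1 encodes cyclin D1, and its probe (chr11:69468233-69468292) was printed in 10 spots per array. The SD among those spots was 0.05 to 0.14 on the log2 scale within an array. Normalized signals were -3.87, -3.56 and -3.26 in pLUM and -2.04, -2.19 and -2.25 in pLB. Every pLB array was above every pLUM array, and the pLUM arrays were the more spread. CCND1 was thus higher in the line without E, by 1.40 ± 0.20 (SE) or 2.64-fold (limma adjusted p = 0.000701, 95% confidence interval 0.93 to 1.87). Under normexp correction the difference was 0.43 and CCND1 was no longer called, with a limma adjusted p of 0.19.

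CCND3 (cyclin D3, chr6:41903193-41903252) was the member whose arrays overlapped. Its signals were -3.05, -3.08 and -2.52 in pLUM and -2.12, -2.17 and -3.10 in pLB, where replicate 3 lay below all pLUM arrays. The difference was 0.42 with a 95% confidence interval of -0.31 to 1.15 (limma adjusted p = 0.27), and it was -0.05 under normexp correction. Of the 3 D-type cyclin genes, 2 were therefore called higher in pLB, and for CCND3 the interval leaves room for no change and for a 2-fold increase.

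CDK4 (chr12:58142263-58142322) moved the same way as CDK6, by a smaller amount on this scale. Its signals were 1.95, 2.07 and 2.36 in pLUM and 4.19, 4.01 and 3.34 in pLB. All pLB arrays were higher, with replicate 3 the closest to pLUM. The difference was 1.72 ± 0.26 (SE) or 3.30-fold (limma adjusted p = 0.000886), and it stayed between 1.51 and 2.07 in every alternative processing run.

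The 250 bases before the CDK4 start are shown because they hold 3 copies of the hexamer CACGTG, known as an E-box. The sequence is from RefSeq, GRCh38.p14, chr12:57752311-57752560 on the minus strand, with the E-box in capitals.
CDK4 upstream: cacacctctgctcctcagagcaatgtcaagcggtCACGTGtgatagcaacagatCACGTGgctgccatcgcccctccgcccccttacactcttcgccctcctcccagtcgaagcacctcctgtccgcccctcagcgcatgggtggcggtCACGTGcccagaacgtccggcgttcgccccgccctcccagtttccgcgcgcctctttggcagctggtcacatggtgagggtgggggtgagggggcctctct
The first bases of the hexamers lie 216, 196 and 101 bases before the start. CACGTG reads the same on both strands, was chosen after the sequence was seen, and occurs in 6.34% of 35116 such windows, while 3 or more copies occur in 0.0797%. RefSeq windows matched 7 of the 10 genes, 11 windows in all, and CDK4 was the only gene among them with this hexamer. None of the 11 held the E2F words TTTCCCGC, TTTGGCGC, TTTCGCGC or TTTGCCGC on either strand, which occur in 2.79% of all windows. A match or its absence describes these letters in these windows only.

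The E-type cyclins differed little. CCNE1 (chr19:30315106-30315165) had signals of 1.98, 1.95 and 1.99 in pLUM and 2.03, 2.06 and 2.14 in pLB, which did not overlap but lay close together. Its difference was 0.10 with a 95% confidence interval of -0.25 to 0.44 (limma adjusted p = 0.58), and its sign turned with quantile normalization, to -0.10. CCNE2 by its representative probe (chr8:95892618-95892677) had signals of 0.81, 0.84 and 0.67 in pLUM and 0.21, 0.29 and 0.09 in pLB. All pLB arrays were lower, by -0.58 ± 0.16 (SE, limma adjusted p = 0.014), and pLUM exceeded pLB 1.49-fold, which is short of the 2-fold threshold. With slide as a block its limma adjusted p was 0.089. The second CCNE2 probe (chr8:95894361-95894420) gave -3.09, -2.67 and -3.60 in pLUM and -3.55, -3.44 and -2.90 in pLB. Its arrays overlapped, and the difference was -0.17 (limma adjusted p = 0.62).

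**Figure D2:**
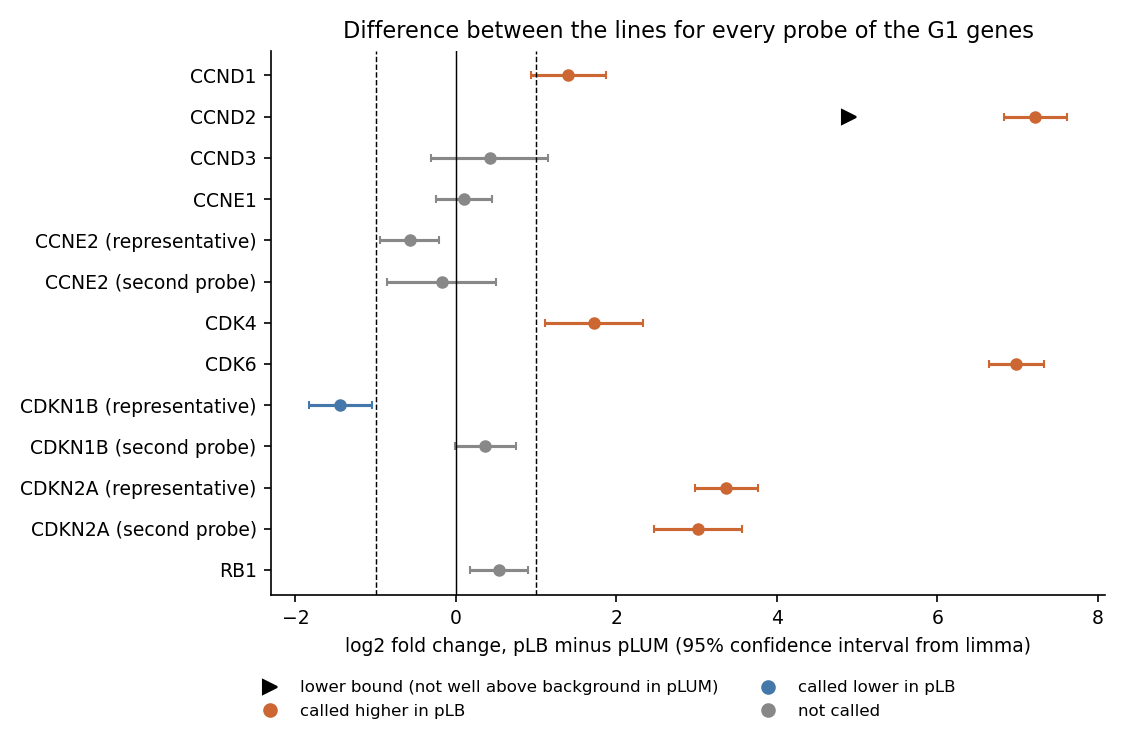
Log2 fold change, pLB minus pLUM (horizontal axis), of all 13 probes, with the 95% confidence interval from limma as bars. Orange and blue points were called higher and lower in pLB, grey points were not called, dashed lines mark 2-fold, and the triangle gives the lower bound of CCND2. CDK6 and CCND2 stand far to the right, both CDKN2A probes lie near 3, and the CDKN1B probes fall on opposite sides of 0.

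CDKN2A, whose products p16INK4a and p14ARF act on CDK4 and CDK6 and on the p53 pathway respectively, was higher in pLB by both of its probes. The representative probe (chr9:21968039-21968098, transcript NM_058197) gave 1.43, 1.42 and 1.29 in pLUM and 4.84, 4.86 and 4.54 in pLB. Its arrays did not overlap, and the difference was 3.37 ± 0.17 (SE) or 10.3-fold (limma adjusted p = 4.54e-06). The second probe (chr9:21970901-21970960, transcript NM_000077) gave -1.70, -1.59 and -1.38 in pLUM and 1.76, 1.60 and 1.01 in pLB, with no overlap. The difference there was 3.02 ± 0.23 (SE) or 8.08-fold (limma adjusted p = 3.40e-05). The log2 ratio of the representative to the second probe within an array was 2.94 ± 0.24 in pLUM and 3.29 ± 0.22 in pLB (SD, n = 3 each, exact permutation test, two-sided p = 0.2). The second probe is shown because it lies in the exon that the p16INK4a and p14ARF transcripts share, so that the array does not separate these products, with capitals for the 19 whole codons of its only reading frame without a stop (minus strand, hg19).
CDKN2A second probe: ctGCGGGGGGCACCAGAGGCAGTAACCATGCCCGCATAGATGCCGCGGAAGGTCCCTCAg

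CDKN1B encodes p27, and its probes disagreed. The representative probe (chr12:12874940-12874999), with 10 spots whose SD within an array was 0.05 to 0.10, gave -0.40, -0.50 and -0.62 in pLUM and -1.89, -1.82 and -2.12 in pLB. By this probe every pLB array was lower, by -1.44 ± 0.17 (SE), so that pLUM exceeded pLB 2.71-fold (limma adjusted p = 0.000239). The second probe (chr12:12871119-12871178), upstream of the first on the plus strand, gave -2.37, -2.38 and -2.64 in pLUM and -2.07, -2.17 and -2.05 in pLB. By that probe every pLB array was above every pLUM array, by 0.37 ± 0.16 (SE), and it was not called (limma adjusted p = 0.083). The log2 ratio of the representative to the second probe within an array was 1.97, 1.88 and 2.02 in pLUM and 0.18, 0.35 and -0.07 in pLB. This ratio was lower by -1.81 in pLB and its arrays did not overlap, for which the exact permutation test gives its smallest two-sided p of 0.1. The mean of both probes differed by -0.54, short of 2-fold, and CDKN1B is called lower only by its downstream probe. The sequence of the second probe is shown because it lies in the coding sequence of p27, and the capitals mark the 20 codons of its only reading frame without a stop (plus strand, hg19).
CDKN1B second probe: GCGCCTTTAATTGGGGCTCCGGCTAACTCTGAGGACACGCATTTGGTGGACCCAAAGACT

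RB1, the substrate of these kinases, was measured by a probe with 10 spots (chr13:49055845-49055904) whose SD within an array was 0.06 to 0.12. Its signals were 1.00, 1.24 and 1.07 in pLUM and 1.64, 1.69 and 1.58 in pLB, with all pLB arrays above all pLUM arrays. The difference was 0.53 ± 0.15 (SE) or 1.45-fold (limma adjusted p = 0.019, 95% confidence interval 0.17 to 0.90), which is under the 2-fold threshold. RB1 RNA was thus present in both lines, and with slide as a block its limma adjusted p was 0.0997.

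The 3 pLUM arrays and pLB replicate 1 shared a slide and a scan, and pLB replicates 2 and 3 shared the other. A fit with slide as a block therefore compares only pLB replicate 1 with pLUM. Within that slide the difference was 1.52 for CCND1, 7.40 for CCND2 as a fitted value, 2.07 for CDK4, 6.99 for CDK6, -1.39 for CDKN1B by the representative probe and 3.46 for CDKN2A. These 6 genes were also called with that block.

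**Figure D3:**
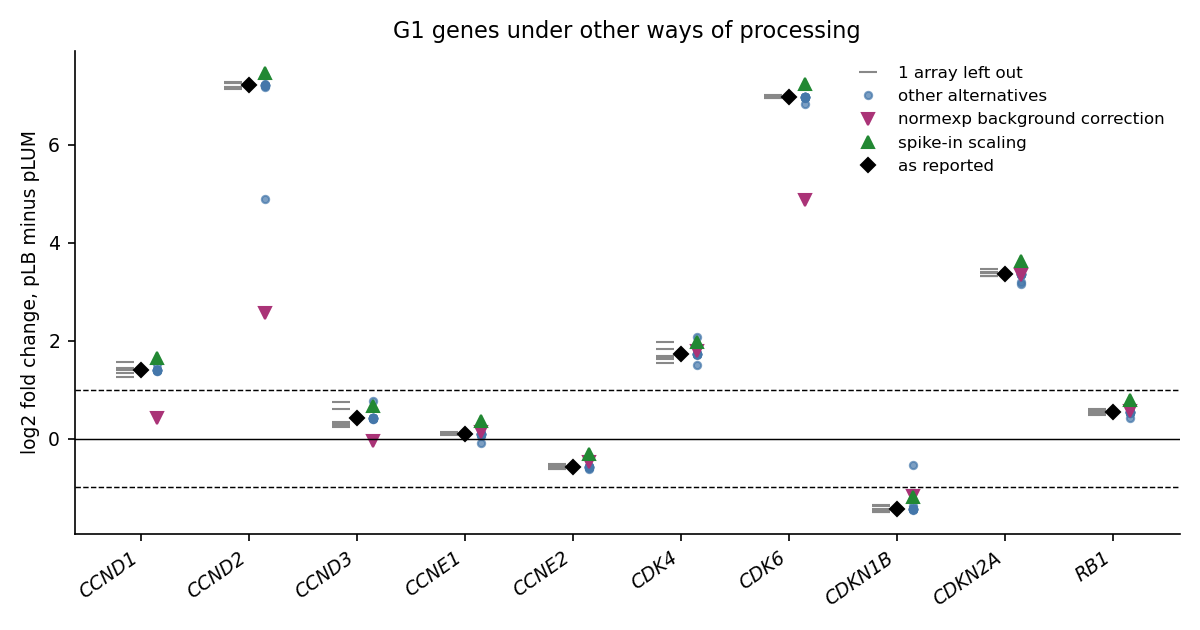
Log2 fold change, pLB minus pLUM (vertical axis), of the 10 genes under the main processing (diamonds), with 1 array left out (grey dashes), with normexp background correction (downward triangles), with spike-in scaling (upward triangles) and under the other alternatives (blue points). Dashed lines mark 2-fold. CCND1, CCND2 and CDK6 moved most with normexp correction, and the low CDKN1B point at -0.54 is the mean of its probes.

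Counts of called genes in the lists that follow stand beside 22.6% higher and 23.1% lower among all tested genes, and no list was tested as a whole. Among other CDK inhibitors, 3 of 5 were called higher and 1 lower, and under normexp correction CDKN1A and CDKN2B were no longer called. CDKN1C (p57), a CIP/KIP inhibitor, was 6.88-fold higher in pLB. CDKN1A (p21), the CIP/KIP inhibitor known as a p53 target, had signals of -5.63, -5.64 and -5.01 in pLUM, with only 1 of these arrays well above background, and of -3.45, -2.44 and -2.97 in pLB. These arrays did not overlap, and its difference was 2.47 or 5.56-fold (limma adjusted p = 0.000321), but it was 0.43 and not called under normexp correction. CDKN2B (p15INK4b), which lies next to CDKN2A, had signals of -6.42, -5.85 and -4.43 in pLUM and -4.58, -4.15 and -3.77 in pLB. Its arrays overlapped and it was well above background on 1 pLUM array. The difference of 1.40 (limma adjusted p = 0.041) was no longer called in 10 of 20 alternatives. CDKN2C (p18INK4c) was called lower by -1.19, and CDKN2D (p19INK4d) differed by -0.19 (limma adjusted p = 0.39).

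Of 12 further kinases, cyclins and partners, 11 were tested, 4 were called higher and 1 lower. CDK2, the partner of the E-type cyclins, differed by 0.12 (limma adjusted p = 0.56) and its arrays overlapped. MYC, a transcription factor that drives entry into the cycle, was higher by 2.53 or 5.79-fold. CCNH and CDK7, which form the kinase that activates other CDKs, were higher by 1.94 and 1.05, and CCNA2, the cyclin of S phase, by 1.45. CDC37, a co-chaperone known to deliver CDK4 to HSP90, was lower by -1.25.

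Of 19 pocket protein, E2F factor and DREAM complex genes, all tested, 2 were called higher and 1 lower, and without the 2-fold threshold 6 were higher and 4 lower. Members went both ways, and the median difference was 0.03. TFDP2, an E2F partner, was 4.43-fold higher. RBL1 (p107) was 3.09-fold higher by its representative probe, while another RBL1 probe differed by 0.56 and was not called (limma adjusted p = 0.19). RBL2 (p130) differed by -0.11 (limma adjusted p = 0.60), and E2F1 by 0.60 (limma adjusted p = 0.012), which is under 2-fold. E2F8, an E2F repressor, was lower by -1.46. Of 14 E2F target genes, 5 were called higher (35.7%, beside 22.6% of all genes) and 1 lower (7.14%, beside 23.1%), with a median of 0.42. CCNA2, CDT1 (replication licensing, 1.44), RRM1 (a ribonucleotide reductase subunit, 1.07) and TK1 (thymidine kinase, 1.02) were higher without overlap of the lines. ORC1 was also called, although its arrays overlapped, and is named here after its values were seen. EZH2, the methyltransferase of Polycomb repressive complex 2, was lower by -2.24.

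Of 12 genes for turnover of G1 cyclins and p27, 2 were called higher and 1 lower, or 16.7% and 8.33%, both shares under those of all tested genes. AMBRA1, a substrate receptor for D-type cyclins, was higher by 1.56 by its representative probe, while another AMBRA1 probe differed by -0.62 and was not called. GSK3B, a kinase that phosphorylates cyclin D1, was 2.15-fold higher. FBXO4, an F-box protein linked to cyclin D1 turnover, was lower by -2.12. SKP2, the F-box protein that recognizes p27, was among the 9 genes not called, at -0.28 (limma adjusted p = 0.30), and is named here after its values were seen.

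Of 9 tested regulators of CDKN2A, 5 were called lower in pLB (55.6%, beside 23.1% of all genes) and 2 higher (22.2%, beside 22.6%). The median difference of these 9 genes was -1.17, also with TBX2 and ETS2 at their bounds. The genes called lower are repressors of CDKN2A or, in the case of DMTF1, an activator of its p14ARF transcript. EZH2 had a mean signal of 3.08 ± 0.07 in pLUM and of 0.83 ± 0.17 in pLB (SD, n = 3 each), its arrays did not overlap, and it was 4.74-fold higher in pLUM. TWIST1 was lower by -2.27. CBX7, a Polycomb protein, was lower by -1.62 by its representative probe, while another CBX7 probe differed by 0.50 and was not called. DMTF1 was lower by -1.17, and another DMTF1 probe differed by -0.99 and was not called. TBX2, a T-box repressor, was called lower but was well above background on no pLB array. Its fitted 12.5-fold excess in pLUM is therefore no measured fold. The genes called higher were ID1 and ETS2. ID1, which inhibits ETS and E protein factors and so is itself a repressor here, was higher by 3.70. ETS2, an activator of p16INK4a that was not well above background in pLUM, was at least 2.50-fold higher. The repressors BMI1 (-0.80) and TBX3 (-0.73) were not called by their representative probes and are named here after their values were seen. Repressors of CDKN2A thus did not all go the same way. Over all lists, 17 of 67 tested genes (25.4%) were called higher, near the 22.6% of all genes, and 9 (13.4%) lower, beside 23.1%, with a median of 0.08.

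**Figure D4:**
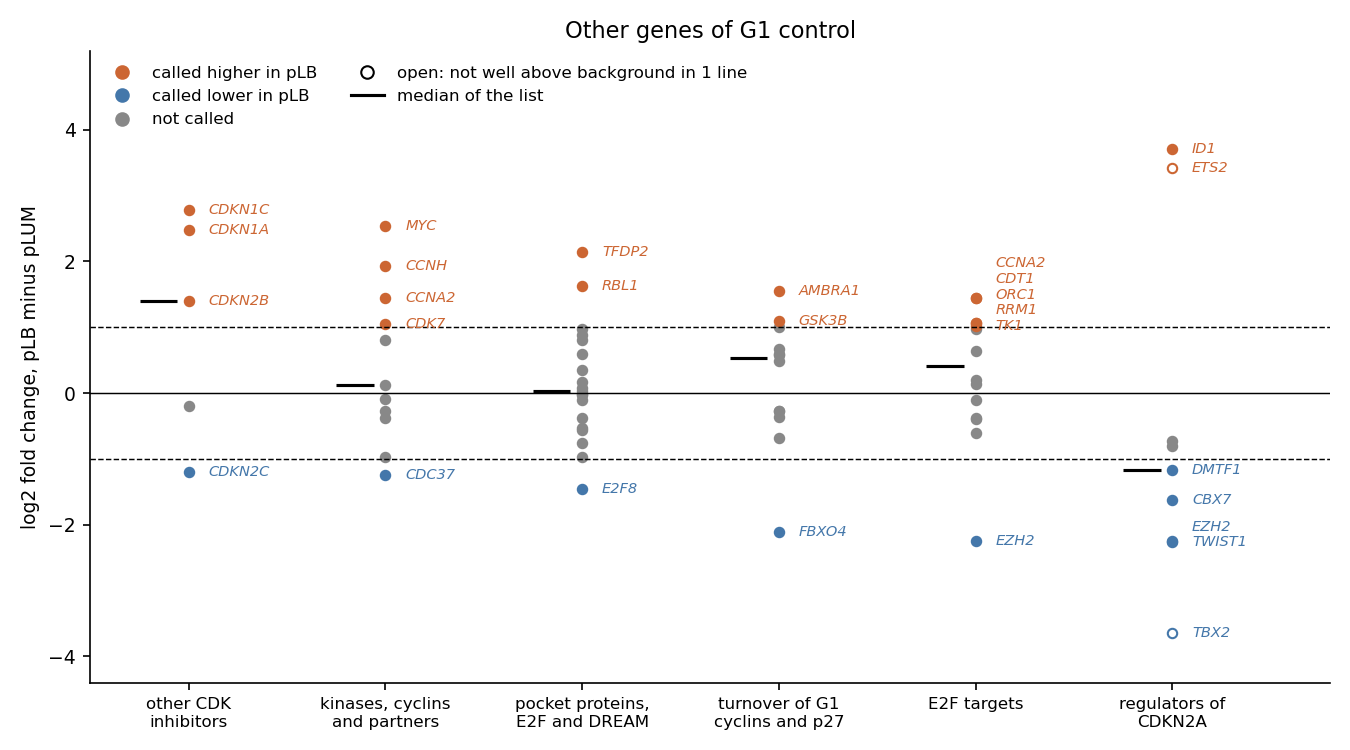
Log2 fold change, pLB minus pLUM (vertical axis), of the tested genes in 6 lists of G1 control, with 1 point per gene by its representative probe and the names of called genes. Short black lines give the median of each list, dashed lines mark 2-fold, and open points mark genes not well above background in 1 line, whose fitted change is no measured fold. Of the CDK inhibitors, 3 of 5 lie above 0 and the median of 1.40 is the value of CDKN2B, which was -0.17 under normexp correction. Of the regulators of CDKN2A, 2 of 9 lie above 0.

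The 5 nearest tested genes on each side of a member, by probe position in hg19, are given here as a description, and the share of all genes called, given above, applies to them too. Beside CDKN2A, 5 of 10 were called higher and 1 lower. These were MTAP, 102 kb away and 4.59-fold higher, MIR31HG, higher by at least 3.33 on the log2 scale, IFNE, at least 5.56-fold, KLHL9, 2.81-fold, and CDKN2B. Beside CDK6, 4 of 10 were called higher, all at higher coordinates than the CDK6 probe, and 5 lower. The nearest of them, an unnamed transcript 84.9 kb from the CDK6 probe, was 17.6-fold higher and may lie within CDK6 itself. Distances run from the member's probe, so this transcript cannot be counted as a separate gene with certainty. SAMD9L was well above background on no pLUM array, so its fitted 6.90-fold increase is no measured fold. The other 2 are unnamed transcripts 312 kb away that were well above background on no pLUM array. Of the genes called lower beside CDK6, FAM133B (-1.08), GATAD1 (-1.17) and VPS50 (-1.06) were measured in both lines, and MGC16142 was well above background on no pLB array.

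Beside CDK4, 4 of 10 were called higher and 0 lower. These were AGAP2-AS1, 10.8-fold, B4GALNT1, 3.38-fold, SLC26A10, 3.17-fold, and OS9, 2.42-fold, while TSPAN31, the nearest, differed by 0.58 and was not called. Beside RB1, 3 of 10 were called higher and 1 lower. LPAR6, which is known to lie within an intron of RB1, was 12.5-fold higher, and ITM2B was 9.78-fold higher, beside 1.45-fold for RB1 itself. The third was an unnamed probe. Neighbours of CCND1 were called higher in 1 case and lower in 3, and those of CCND2 in 2 cases and 1. Beside CCND3, CCNE1, CCNE2 and CDKN1B, 0 to 2 of 10 were called higher and 1 to 4 lower.

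**Figure D5:**
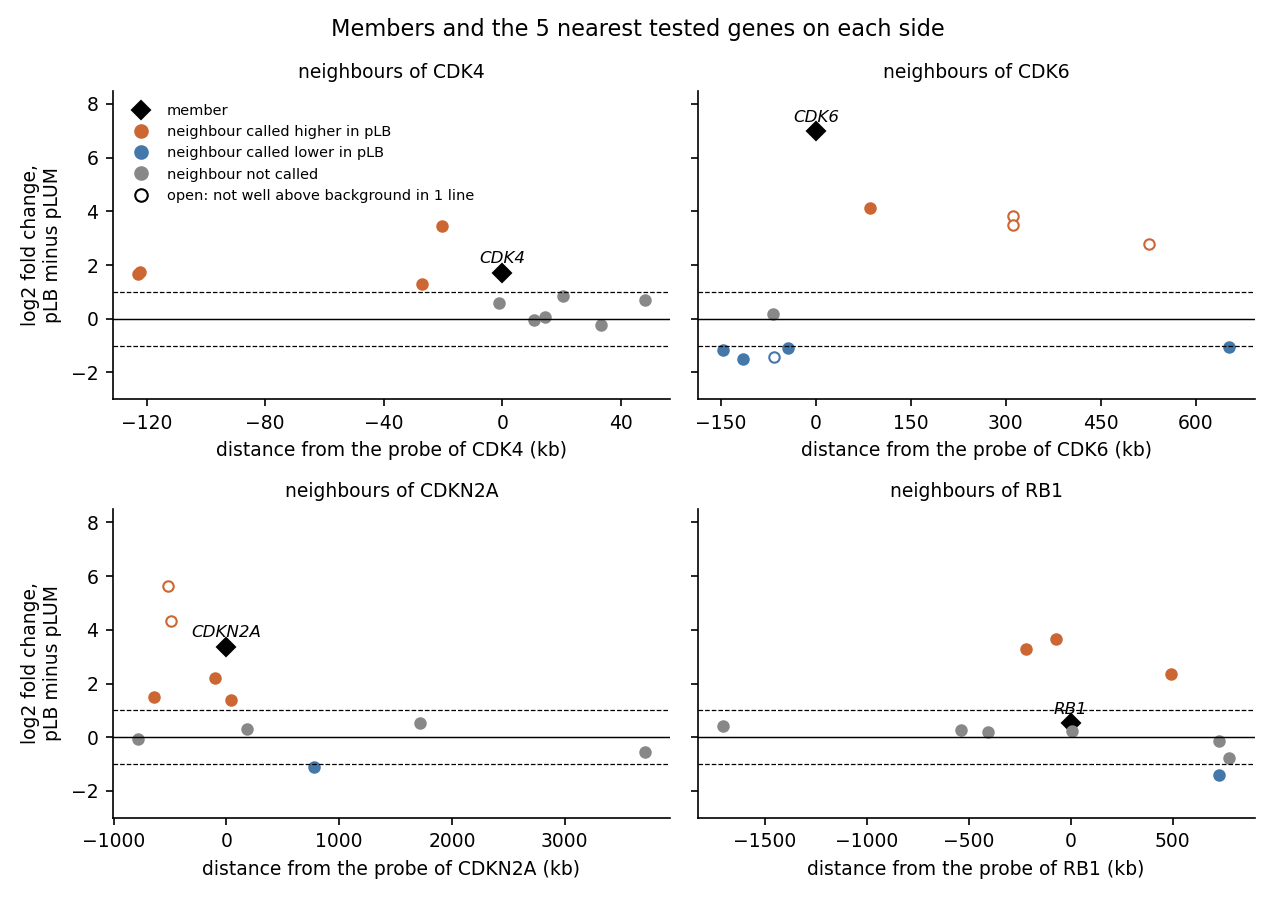
Log2 fold change, pLB minus pLUM (vertical axis), against distance in kb from the member's probe (horizontal axis, hg19 order) for the 5 nearest tested genes on each side of CDK4, CDK6, CDKN2A and RB1. Diamonds are the members, circles the neighbours, open circles mark genes not well above background in 1 line, and dashed lines mark 2-fold. Higher neighbours lie at larger coordinates than the CDK6 probe and at smaller ones than the CDK4 probe, and RB1 lies below 3 of its neighbours.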

How the data were processed

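RNA of 3 pLUM and 3 pLB samples was hybridized to 1-colour Agilent arrays. The files that the authors deposited are scanner tables from Agilent Feature Extraction 10.10.1.1. They hold a linear intensity for each spot, corrected for background within its array and not normalized between arrays, and flags for signals well above background and outliers. Control spots and outlier-flagged spots were left out here (296 to 387 flagged spots per array, 11 of members over all arrays), and no spot was saturated. The log2 intensity minus the log2 75th percentile of the array was averaged over spots of a probe. Lines were compared with limma 3.58.1 (lmFit, eBayes) in R 4.3.3 without covariates, and 6 tested probes lacked a value on an array. Positions are those of the files (hg19). Symbols were updated through transcript identifiers of RefSeq GRCh38.p14, which named 27978 of 34127 probes. No annotation of hg19 was used here, so exons were not assigned from one.

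Tested on simulated data for pLB against pLUM, with 200 of 23099 probes changed, the fit recovered 153 with 4 false calls. Far fewer probes were changed there than were called between the lines. These counts are therefore not the sensitivity or error rate of the reported calls. The alternatives changed the background correction, scaling, filter, threshold, test, probe rule or block, or left out 1 array. In the text stand all members with every probe, 6 further genes by name (CDK2, CDKN1A, CDKN2B, E2F1, RBL1 and RBL2), and up to 4 called genes per direction and list that do not overlap between lines. Members and lists were chosen with earlier results of these data known.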

Additional observations from a re-analysis of the deposited data

How the results depend on the processing

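Across 21 alternatives, the number of members called higher in pLB was 4 to 6 against 5, and the number called lower 0 to 2 against 1. For the other G1 genes these numbers were 12 to 25 against 17, and 6 to 17 against 9. CDK4, CDK6 and CDKN2A kept their calls in all 21, and CCND2 in the 20 that gave it a value, since a filter that requires signal on all 6 arrays removes it. With no fold threshold, CCNE2 was called lower and RB1 and E2F1 higher, so that 2 members, 2 member probes and 17 other G1 genes were lower (main 9). With the mean of probes in place of the representative, 0 members were lower, because CDKN1B fell short of 2-fold. Normexp correction gave 2567 genes called higher in all (main 4024), moved the median of all genes to -0.22, ended the calls of CCND1 and CDKN1A, and turned CDKN2B to -0.17. Spike-in scaling moved that median to 0.28 and kept the calls of all members. The cause of these shifts was not tested. With 1 array left out, members called higher and lower stayed at 5 and 1, member probes at 6 and 1, and other G1 genes called higher and lower ranged from 15 to 18 and from 9 to 11. All genes called higher ranged from 3969 to 4115, and lower from 3869 to 4590. The differences of CCND1, CDK4 and CDKN1B were then 1.25 to 1.55, 1.55 to 1.98 and -1.50 to -1.35.

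Replicate numbers are not stated to pair the samples. Deviations of same-numbered arrays from their line's mean had r of -0.27, -0.09 and -0.22 across probes. These values cannot decide whether sorts were paired, since the pLB arrays were also split between slides. With the replicate block, 5 members were still called higher and 1 lower, and 3978 genes were called higher and 4054 lower in all. Low signal limits CCND2 and CDKN2B, and also CDKN1A, in pLUM, where their probes were well above background on 0 or 1 of 3 arrays.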

Other observations

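Other tested probes of the genes in the G1 lists, 23 probes of 19 genes, did not always give the call of the representative probe. Of these, 5 were called higher and 3 lower where the representative was not called, and 4 were not called where the representative was. E2F7 differed by 0.88 by its representative probe and by 1.86 by another, CKS1B by 0.59 and 1.62, and E2F3 by 0.03 and 1.06. E2F6 differed by 0.81 and 1.04. In the other direction, RBBP4 differed by -0.38 and -2.31, CCNDBP1 by -0.97 and -2.58, and TBX3 by -0.73 and -1.20. These genes were chosen after their values were seen.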
